A study of Mus musculus with 8 samples.

Results

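The 10 genes described here are 4 developmental pluripotency-associated genes (Dppa2, Dppa3, Dppa4, and Dppa5a) and 6 further genes tied to the pluripotent state (Utf1, L1td1, Sall4, Tbx3, Nr0b1, and Nr5a2). They were chosen by symbol, and all 10 of 10 symbols were found among the 24354 genes of the expression table. RNA sequencing covered 8 libraries, 2 from each of 4 cell groups. ESCs were wild-type E14 embryonic stem cells, kept on feeder cells with serum and leukemia inhibitory factor (LIF). EPSCs were wild-type extended pluripotent stem cells (line 1, passage 15), derived from a C57BL/6 embryo at the 8-cell stage and kept on mitomycin C-treated C3H embryonic fibroblasts in LCDM, a medium with LIF, CHIR99021, dimethindene maleate, and minocycline. NSCs were neural stem cells that carry 1 copy each of OG2 (GFP under the distal enhancer of Oct4) and ROSA26 (lacZ), grown on gelatin with EGF and FGF2. Hybrid cells were tetraploid products of PEG fusion between EPSCs and these NSCs (line 2-2, passage 10), expanded from a single Oct4-GFP+ cell and kept in LCDM on the same feeders. Hybrid cells were therefore picked for activity of an Oct4 reporter, and each group stands for 1 line. Every limma p-value below rests on the spread between the 2 libraries of a line, pooled over the 4 groups and moderated over genes. None of them measures the spread between lines. The sample labels do not say whether the 2 libraries of a line are separate cultures. ESCs and EPSCs differed in line and medium at once, and these cannot be told apart.

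Pluripotent cells hold a transcription factor network around OCT4, SOX2, and NANOG, and the genes of this set act around it as chromatin proteins, RNA-binding proteins, partner factors, and orphan nuclear receptors. DPPA2 and DPPA4 form a heterodimer that sits at CpG-rich promoters, keeps them free of DNA methylation, and is known to act upstream of genes that are active at the 2-cell stage. DPPA3 (Stella) holds back maintenance of DNA methylation by acting on UHRF1. Most of these genes are silent in somatic cells and in neural stem cells, and return in cells that are reprogrammed.

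The labels were first set against marker genes. Pou5f1 (Oct4) lay between 742 and 1106 FPKM in the ESC, EPSC, and hybrid libraries and was listed at 0 in both NSC libraries. Neural stem cell markers summed to 5842 and 5971 FPKM in NSCs. Their sums of 222 to 673 FPKM in the other 6 libraries came mostly from Vim, which feeder fibroblasts also express, whereas Fabp7, at 2709 and 2798 FPKM in NSCs, did not exceed 0.238 FPKM elsewhere. Feeder fibroblast markers (16 genes) summed to 17.0 and 18.4 FPKM in ESCs, 97.4 and 99.3 in EPSCs, 279 and 375 in hybrid cells, and 19.0 and 20.0 in NSCs. Among them is Postn, which the paper counts as an EPSC-specific gene. Of the 15 feeder markers tested, 15 were higher in hybrid cells than in EPSCs, beside 22.5% of all genes tested, and their part in the results below was not tested. Lum and Fap were listed at 0 in ESC replicate 1. In bulk RNA, fewer cells of a type and less RNA per cell cannot be told apart.

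All 10 genes were on in the 3 pluripotent groups and off, or nearly off, in NSCs. Dppa2 was listed at 0 and 0.020 FPKM in the NSC libraries. The spacing of low FPKM values gave an approximate depth, at which the latter value equals 1.0 to 1.29 fragments. Nr5a2, an orphan nuclear receptor that binds the Oct4 gene, stood at 0.265 and 0.262 FPKM in NSCs, above the 0.220 and 0.218 FPKM that 3 fragments give on its shortest coding transcript of 679 bases. The other 8 genes were listed at 0 in both NSC libraries. At 3 fragments, a value of 0 allows up to 0.545 FPKM for Sall4 and 0.396 for L1td1, on shortest coding transcripts of 393 and 466 bases. The limit was 0.251 FPKM for Dppa5a, with a transcript of 619 bases, and 0.0230 FPKM for Tbx3, with a shortest coding transcript of 4777 bases. These floors cover counting error only. Housekeeping genes were not at 0 in these libraries (Tbp at 15.1 FPKM or more). Of the 5565 genes with a mean over 10 FPKM in each pluripotent group, 81 (1.46%) were listed at 0 in both NSC libraries, and 8 of these 81 belong to the set.

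By limma, all 10 genes exceeded NSCs in each of the 3 pluripotent groups (adjusted p below 0.05). No gene of the set had an NSC mean above 0.264 FPKM. All 10 therefore entered the test only through the pluripotent groups, and the filter largely fixed this direction. The shares and medians over all genes given below include genes that entered through NSCs, so nothing is read from the contrast with them. Of all 13239 genes tested, 42.8%, 45.2%, and 44.5% were higher for ESCs, EPSCs, and hybrid cells. All 10 also passed the fold rule of the methods (mean over 3 FPKM and a ratio over 3), which 11.7%, 12.3%, and 12.7% of genes passed in this direction. On the log2(FPKM + 1) scale the median difference of the set was 7.02 for ESCs, 6.45 for EPSCs, and 6.73 for hybrid cells, beside 0.03, 0.08, and 0.06 over all genes tested. No fold is given against a value of 0, and for Nr5a2 the ratio of means was 115-fold in ESCs, 149.9-fold in EPSCs, and 125-fold in hybrid cells.

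**Figure D1:**
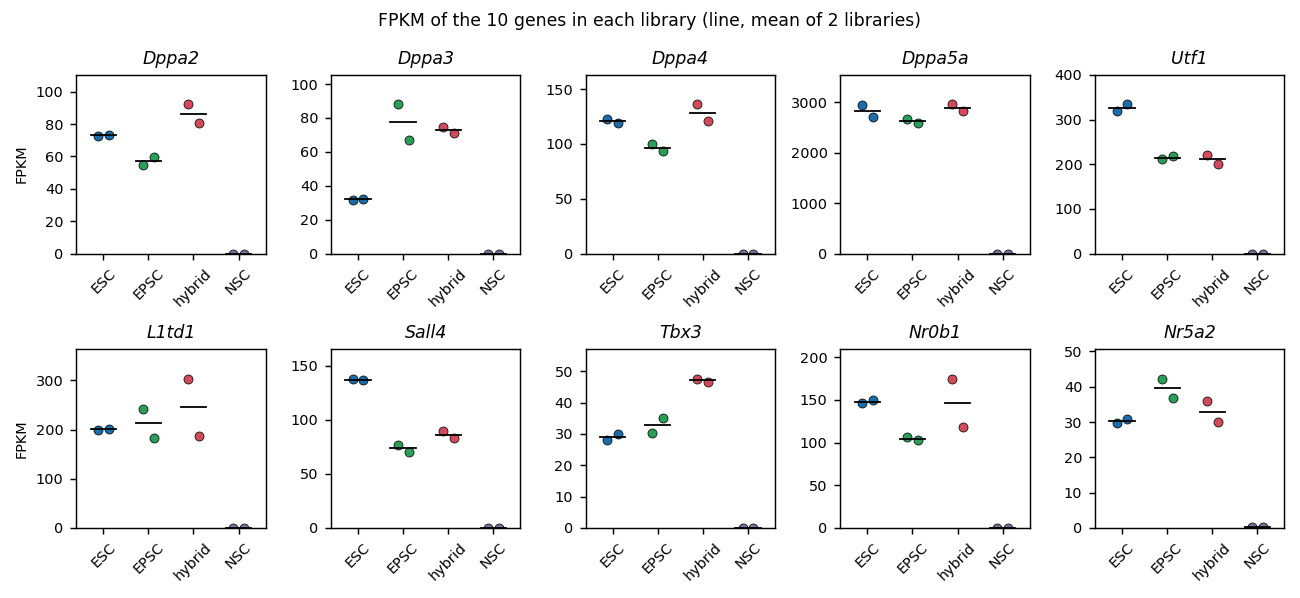
FPKM of each of the 10 genes (vertical axes, linear from 0, one scale per gene) in the 2 libraries of ESCs, EPSCs, hybrid cells, and NSCs (points), with the mean of both libraries as a line. NSC points lie at or near 0 for every gene, Dppa3 is higher in EPSCs and hybrid cells than in ESCs, and Sall4 and Utf1 are highest in ESCs.

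Among the pluripotent groups the genes differed by far less, and not in 1 direction. In EPSCs against ESCs, 2 genes were higher (Dppa3 and Nr5a2), 5 were lower (Dppa2, Dppa4, Utf1, Sall4, and Nr0b1), and 3 did not pass the test (Dppa5a, L1td1, and Tbx3). Over all genes tested, 33.7% were higher and 27.3% lower. In hybrid cells against EPSCs, 5 genes were higher (Dppa2, Dppa4, Tbx3, Sall4, and Nr0b1), 0 were lower, and 5 did not pass, beside 22.5% higher and 21.9% lower over all genes. In hybrid cells against ESCs, 3 genes were higher (Dppa2, Dppa3, and Tbx3) and 2 lower (Utf1 and Sall4), beside 35.3% and 30.2%. The median log2 difference of the set was -0.21 for EPSCs against ESCs and 0.20 for hybrid cells against EPSCs, whereas the median of all genes was 0.04 and 0.00. The 3 comparisons share libraries with each other. Libraries of the compared groups did not overlap for 9 genes in EPSCs against ESCs (3 higher and 6 lower, beside 45.8% and 37.5% of all genes), 7 genes in hybrid cells against EPSCs (6 higher and 1 lower, beside 34.5% and 33.6%), and 5 genes in hybrid cells against ESCs (3 higher and 2 lower, beside 44.9% and 38.9%). With the fold rule of the methods, 0 of the 10 genes passed in any of them, while 2.36% of genes were higher and 2.36% lower in EPSCs against ESCs, 1.04% and 0.551% in hybrid cells against EPSCs, and 3.64% and 3.04% in hybrid cells against ESCs.

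**Figure D2:**
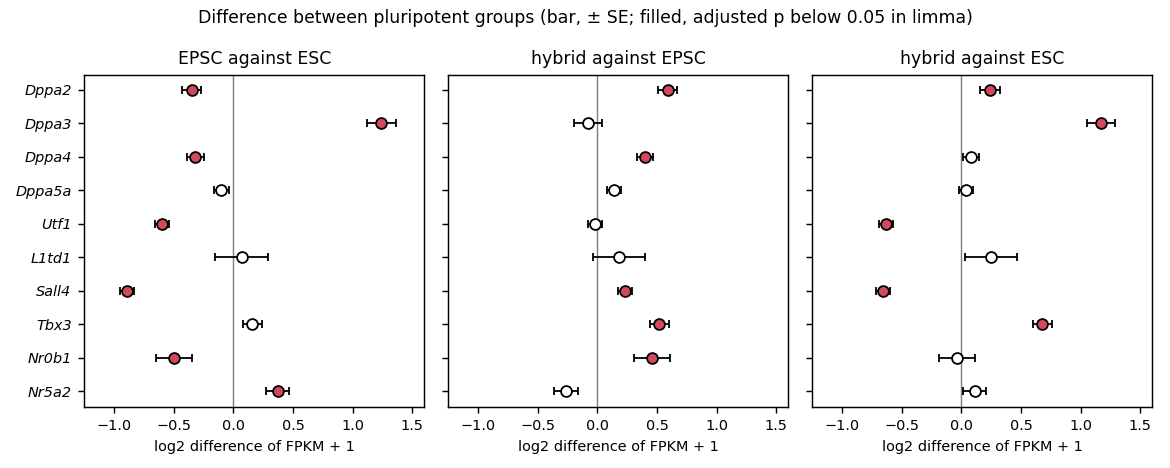
Difference of log2(FPKM + 1) for each gene (rows) in EPSCs against ESCs, hybrid cells against EPSCs, and hybrid cells against ESCs (panels), with the standard error as a bar. Filled points passed limma at an adjusted p below 0.05, and Dppa3 shows the widest gap to ESCs, at 1.24 in EPSCs and 1.17 in hybrid cells.

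Dppa2 and Dppa4, the chromatin pair, moved together. They lie next to each other on chromosome 16 (Dppa4 at chr16:48283735-48294292 and Dppa2 at chr16:48310274-48319513 in GRCm38), 16 kb apart. Dppa2 stood at 72.8 and 73.3 FPKM in ESCs, 55.0 and 59.4 in EPSCs, and 92.1 and 80.7 in hybrid cells. The groups did not overlap, with hybrid cells at the top and EPSCs at the bottom. Hybrid cells exceeded EPSCs by 0.59 ± 0.08 (SE) on the log2 scale (1.51-fold, adjusted p = 0.00125), and EPSCs were below ESCs by -0.35 ± 0.08 (adjusted p = 0.00566). Dppa4 followed the same order, at 122.9 and 119.4 FPKM in ESCs, 99.5 and 93.7 in EPSCs, and 136 and 121 in hybrid cells. Its EPSC libraries lay below all others, whereas ESC and hybrid libraries overlapped. The hybrid difference from EPSCs was 0.40 ± 0.07 (1.33-fold, adjusted p = 0.00365), the EPSC difference from ESCs was -0.32 ± 0.07 (adjusted p = 0.00537), and hybrid cells and ESCs did not differ beyond their spread (0.08 ± 0.07, adjusted p = 0.345). The higher level of Dppa2 in hybrid cells than in ESCs was smaller (0.24 ± 0.08, adjusted p = 0.0276) and did not pass under scaling to a common sum, quantile normalization, a pseudocount of 0.1, or without ESC replicate 1, ESC replicate 2, or hybrid replicate 1, where the value was 0.14 (adjusted p from 0.0067 to 0.136 over the alternatives). The ratio of Dppa2 to Dppa4 FPKM was 0.592 and 0.614 in ESCs, 0.552 and 0.633 in EPSCs, and 0.677 and 0.669 in hybrid cells, so hybrid libraries had the highest ratios. Reads of 100 bases can be shared here, since 23.9% of the 100-base windows of the longest Dppa2 transcript and 16.8% of those of Dppa4 occur in other annotated genes.

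Genes of the 2-cell stage, listed as dependent on DPPA2 and DPPA4 in mouse ESCs, were compared next. Of 22 genes listed, 20 had a value and 13 were tested. In EPSCs against ESCs, 13 were higher, beside 33.7% of all genes, with a median log2 difference of 1.35 beside 0.04. All 13 except Eif1a had ESC means below 1 FPKM and entered the test only through EPSCs or hybrid cells. This count was therefore largely fixed by the filter. Dppa2 and Dppa4 were lower in EPSCs than in ESCs, and a link between them and the 2-cell genes was not tested. In hybrid cells against EPSCs, 4 were higher and 1 was lower (Eif1a), beside 22.5% and 21.9% of all genes, with a median of 0.39. Zscan4d, a 2-cell marker, stood at 0.221 and 0.223 FPKM in ESCs, 3.19 and 7.18 in EPSCs, and 8.16 and 10.6 in hybrid cells, and it was listed at 0 in NSCs. Zscan4c stood at 0.412 and 0.353 FPKM in ESCs, 2.34 and 6.55 in EPSCs, and 8.86 and 11.8 in hybrid cells. Both EPSC libraries were below both hybrid libraries for these 2 genes, both EPSC replicates differed more than 2-fold, and members of the Zscan4 family share much of their sequence. Eif1a, a translation initiation factor, stood at 18.7 and 20.4 FPKM in NSCs, where Dppa2 and Dppa4 were at or near 0, and its dependence on them was not tested. At 137 to 192 FPKM in the pluripotent libraries, it made up most of the summed level of the list, and 7 of the genes with a value did not reach a mean of 1 FPKM in any group.

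Germline genes that are silenced by promoter methylation in somatic cells were also compared. Of 18 listed, 14 were tested. In EPSCs, 11 were higher than in ESCs and 1 was lower, beside 33.7% and 27.3% of all genes, with a median of 0.91. Some of the 11 had ESC means below 1 FPKM and entered the test only through EPSCs or hybrid cells. The filter therefore partly fixed this count. In hybrid cells, 9 were higher than in EPSCs and 3 were lower, beside 22.5% and 21.9% of all genes, with a median of 0.45 beside 0.00. Tex101, among the 9, entered the test only through hybrid cells, so the filter fixed its direction. Tex19.1, a placental and germline gene, stood at 14.2 and 13.4 FPKM in ESCs, 109 and 147 in EPSCs, and 269.8 and 279 in hybrid cells. Dazl, an RNA-binding protein of germ cells, stood at 2.2 and 1.89 FPKM in ESCs, 8.15 and 10.8 in EPSCs, and 22.0 and 35.8 in hybrid cells. Both genes rose in each step without overlap of libraries. Sycp3, a protein of the meiotic chromosome axis, had the opposite order, from 54.4 and 56.5 FPKM in ESCs to 11.3 and 16.5 in EPSCs and 5.26 and 8.07 in hybrid cells.

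Dppa3 was the gene of the set that differed most between ESCs and EPSCs. It lies on chromosome 6 (chr6:122626424-122630271). Dppa3 stood at 31.7 and 32.2 FPKM in ESCs, 88.0 and 67.1 in EPSCs, and 74.9 and 70.9 in hybrid cells. Both ESC libraries lay below the other 4 pluripotent libraries, and the hybrid libraries fell between both EPSC libraries. The EPSC mean was 2.43-fold the ESC mean (log2 difference 1.24 ± 0.12, adjusted p = 0.000110), and the hybrid mean was 2.28-fold (1.17 ± 0.12, adjusted p = 0.000107). EPSCs and hybrid cells did not differ beyond their spread (-0.08 ± 0.12, adjusted p = 0.633). Its sign here depended on which EPSC library was used (0.12 without EPSC replicate 1 and -0.27, adjusted p = 0.0294, without EPSC replicate 2). No 100-base window of the longest Dppa3 transcript occurs in another annotated gene.

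Genes of the DNA methylation machinery around DPPA3 were compared next. Of 13 tested, 5 were higher in EPSCs, 3 were higher in ESCs, and 5 did not pass, beside 33.7% and 27.3% of all genes, with a median difference of -0.06. Uhrf1, which recruits DNMT1 to replicated DNA, stood at 137 and 135 FPKM in ESCs and 194 and 187 in EPSCs. Xpo1, a nuclear export receptor, was higher by 0.60 (adjusted p = 0.000306), and Tdg, which excises oxidized methylcytosine, by 1.08 (adjusted p = 0.000176). Dnmt3b (0.75, adjusted p = 0.00556) and Tet1 (0.69, adjusted p = 0.000807) were also higher. The lower genes were Tet3 (-0.42, adjusted p = 0.00329), Zfp57, which keeps imprints (-0.30, adjusted p = 0.0015), and its partner Trim28 (-0.17, adjusted p = 0.0298). In hybrid cells against EPSCs, 3 were higher and 4 lower, beside 22.5% and 21.9% of all genes, and the lower genes were Dnmt3a (-1.0), Tet2 (-0.78), Tdg (-0.62), and Tet1 (-0.39). The higher genes were Dnmt1, the maintenance methyltransferase (0.38, adjusted p = 0.00193), Tet3 (0.34, adjusted p = 0.0134), and Uhrf2 (0.28, adjusted p = 0.0203).

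Dppa5a, a KH-domain RNA-binding protein, was the most abundant gene of the set. It ranked 28th by mean FPKM in ESCs, 32nd in EPSCs, and 20th in hybrid cells. Dppa5a stood at 2941 and 2698 FPKM in ESCs, 2669 and 2580.0 in EPSCs, and 2955 and 2831 in hybrid cells. Both EPSC libraries lay below the other 4, by narrow margins, and none of the 3 comparisons passed (hybrid cells against EPSCs 0.14 ± 0.06, adjusted p = 0.0901; EPSCs against ESCs -0.10 ± 0.06, adjusted p = 0.167). Scaling decided this, since EPSCs against ESCs passed after scaling to a common sum (-0.16, adjusted p = 0.0175), and hybrid cells passed after quantile normalization against EPSCs (0.13, adjusted p = 0.0332) and against ESCs (0.11, adjusted p = 0.0456). Ooep, an oocyte gene of the same family whose start lies 8.70 kb from the end of Dppa5a on chromosome 9, differed between the same groups. It stood at 53.4 and 52.6 FPKM in ESCs, 36.5 and 44.3 in EPSCs, and 81.2 and 91.0 in hybrid cells, and hybrid cells exceeded EPSCs by 1.08 (adjusted p = 0.000358). Khdc3, which works with OOEP in the subcortical complex of the oocyte, was also higher in hybrid cells than in EPSCs (1.83, adjusted p = 0.00528), and Tle6 did not pass (-0.07, adjusted p = 0.773). Of the longest Dppa5a transcript, 3.08% of 100-base windows occur in Dppa5b, Dppa5c, or 2 pseudogenes, so reads could be split between them.

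Utf1, a chromatin-bound cofactor, and Sall4, a zinc finger factor that brings in the NuRD deacetylase complex, were highest in ESCs. Utf1 stood at 318 and 334 FPKM in ESCs, 211 and 218 in EPSCs, and 221 and 201 in hybrid cells. Both ESC libraries were above all others, and the EPSC and hybrid libraries overlapped. EPSCs were at 0.657-fold of ESCs (-0.60 ± 0.06, adjusted p = 0.000147) and hybrid cells at 0.648-fold (-0.63 ± 0.06, adjusted p = 9.3e-05), and the 2 LCDM groups did not differ beyond their spread (-0.02 ± 0.06, adjusted p = 0.793). Sall4 stood at 138 and 137 FPKM in ESCs, 76.9 and 70.3 in EPSCs, and 89.5 and 83.2 in hybrid cells. The 3 groups did not overlap. EPSCs were at 0.536-fold of ESCs (-0.89 ± 0.06, adjusted p = 3.9e-05), the largest fall of the set, and hybrid cells at 0.629-fold (-0.66 ± 0.06, adjusted p = 1.0e-04). The higher level of Sall4 in hybrid cells than in EPSCs was small (0.23 ± 0.06, adjusted p = 0.0257, 0.011 to 0.116 over the alternatives). It did not pass when either ESC library, EPSC replicate 2, or hybrid replicate 1 was left out, or when only both groups were fitted (adjusted p = 0.0971).

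NuRD subunits and the other SALL genes were set beside Sall4. Of 17 genes tested, 7 were higher in EPSCs and 4 in ESCs, beside 33.7% and 27.3% of all genes, with a median difference of 0.04, the same as over all genes. Sall1, a paralogue, was lower, from 51.7 and 56.8 FPKM in ESCs to 34.1 and 34.5 in EPSCs and 24.0 and 28.3 in hybrid cells. The other 3 lower genes were the subunits Mta3 (-0.29, adjusted p = 0.00443), Mbd3 (-0.35, adjusted p = 0.000431), and Gatad2a (-0.36, adjusted p = 0.00608). Mta3 had the order of Sall4, with means of 73.6 FPKM in ESCs, 62.9 in hybrid cells, and 59.9 in EPSCs, although hybrid cells and EPSCs did not differ beyond their spread (0.07, adjusted p = 0.372). Hdac1, a deacetylase of the complex, was higher, from 106 and 96.9 FPKM in ESCs to 255 and 223 in EPSCs (1.23, adjusted p = 2.7e-05). Chd3, an ATPase of the complex, was higher by 1.21 (adjusted p = 0.000114) and Mta2 by 0.81 (adjusted p = 7.7e-05).

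Tbx3, a T-box factor that supports self-renewal downstream of LIF, was highest in hybrid cells. It stood at 28.1 and 30.1 FPKM in ESCs, 30.3 and 35.2 in EPSCs, and 47.6 and 46.6 in hybrid cells. Both hybrid libraries lay above all others, and the ESC and EPSC libraries were close without overlap. Hybrid cells exceeded EPSCs 1.44-fold (0.52 ± 0.08, adjusted p = 0.00285) and ESCs 1.62-fold (0.68 ± 0.08, adjusted p = 0.000306), while EPSCs and ESCs did not differ beyond their spread (0.16 ± 0.08, adjusted p = 0.131; 0.27, adjusted p = 0.0288, without EPSC replicate 1 and 0.06 without EPSC replicate 2). Summed feeder markers had the same order, from 17.0 and 18.4 FPKM in ESCs to 97.4 and 99.3 in EPSCs and 279 and 375 in hybrid cells, and their part in the Tbx3 difference was not tested. Tbx15, the other T-box gene that passed in hybrid cells against EPSCs (0.71, adjusted p = 0.00166), reached 1.47 and 1.15 FPKM. Its mean was 0.407 FPKM in EPSCs. It entered the test only through hybrid cells, so the filter fixed the direction of this call. Summed feeder markers in hybrid replicate 1 were 1.34-fold those in hybrid replicate 2. Tbx3 stood at 47.6 and 46.6 FPKM in these libraries, and every other gene of the set was also higher in hybrid replicate 1. A link to feeder cells was not tested.

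**Figure D3:**
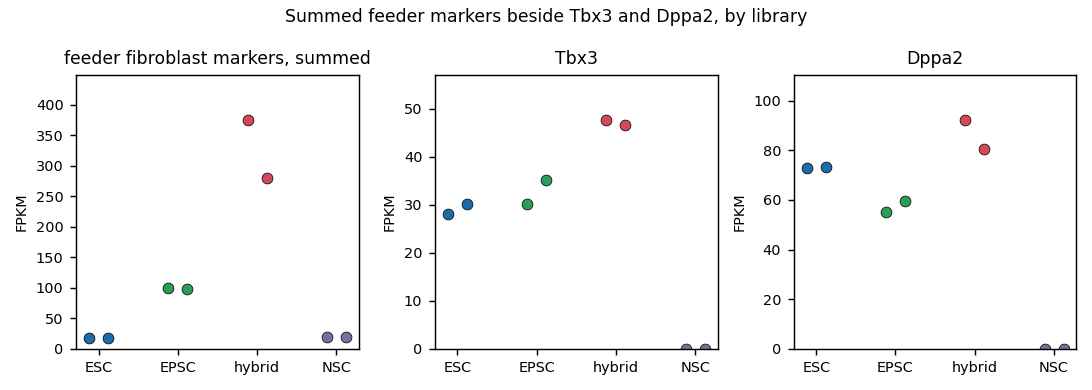
FPKM summed over the 16 feeder fibroblast markers (left), of Tbx3 (middle), and of Dppa2 (right) in each library (points, linear axes from 0). The feeder sum, Tbx3, and Dppa2 are all highest in hybrid cells. In EPSCs against ESCs the feeder sum is higher, Dppa2 is lower, and Tbx3 did not differ beyond its spread. The part of feeder cells in either gene was not tested.

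Nr0b1 (DAX1), an orphan receptor that lacks the usual DNA-binding domain and acts on other factors, and Nr5a2 (LRH-1), a receptor that binds DNA as a monomer, went in opposite directions between ESCs and EPSCs. Nr0b1 stood at 146 and 149.6 FPKM in ESCs, 106 and 103 in EPSCs, and 175 and 119 in hybrid cells. The hybrid libraries lay on both sides of the ESC libraries, and EPSCs were below all others. EPSCs were at 0.707-fold of ESCs (-0.50 ± 0.15, adjusted p = 0.0255) and hybrid cells were 1.40-fold above EPSCs (0.46 ± 0.15, adjusted p = 0.0456). The latter value was 0.18 without hybrid replicate 1 and 0.74 without hybrid replicate 2. Both calls were lost when any 1 of the ESC, EPSC, or NSC libraries was left out or with no filter on low values. The latter call was also lost when only both groups were fitted (adjusted p = 0.104) or without the variance trend (adjusted p = 0.0537), and the adjusted p ranged from 0.000214 to 0.109 and from 0.000479 to 0.138 over the alternatives. Hybrid cells against ESCs gave -0.04 ± 0.15 (adjusted p = 0.849), and the value was -0.32 (adjusted p = 0.00384) without hybrid replicate 1 and 0.24 (adjusted p = 0.0107) without hybrid replicate 2. Nr5a2 stood at 29.6 and 31.0 FPKM in ESCs, 42.3 and 36.8 in EPSCs, and 35.9 and 29.9 in hybrid cells. EPSCs were highest without overlap, at 1.30-fold of ESCs (0.37 ± 0.10, adjusted p = 0.0166). This call was lost without ESC replicate 1 (adjusted p = 0.0975), ESC replicate 2 (adjusted p = 0.06), or EPSC replicate 1 (adjusted p = 0.091). Hybrid cells against EPSCs did not pass (-0.26 ± 0.10, adjusted p = 0.0764), and the value was -0.39 (adjusted p = 0.0215) without hybrid replicate 1 and -0.13 without hybrid replicate 2. The ratio of Nr0b1 to Nr5a2 FPKM was 4.93 and 4.83 in ESCs, 2.51 and 2.79 in EPSCs, and 4.87 and 3.97 in hybrid cells, lowest in EPSCs.

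Other nuclear receptors and T-box genes were compared as well. Of 23 genes tested, 5 were higher and 1 lower in hybrid cells than in EPSCs, with a median of 0.02, beside 22.5% and 21.9% of all genes. Tbx15, among the 5, entered the test only through hybrid cells. In EPSCs against ESCs, 6 were higher and 5 lower, beside 33.7% and 27.3%. Nr6a1 (GCNF), a receptor that represses Oct4 during differentiation, rose from 7.93 and 7.54 FPKM in ESCs to 20.5 and 19.4 in EPSCs and 30.1 and 22.8 in hybrid cells. Nr2f6, an orphan receptor, was lower, from 19.4 and 21.1 FPKM in ESCs to 7.01 and 9.33 in EPSCs (-1.22, adjusted p = 0.000438). Esrrb, an orphan receptor of the naive network, stood at 152 and 147 FPKM in ESCs, 217 and 190.2 in EPSCs, and 213 and 190.9 in hybrid cells, higher in EPSCs than in ESCs by 0.44 (adjusted p = 0.00319).

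L1td1, an RNA-binding protein derived from the LINE-1 element, had the widest spread of the set and passed in no comparison between pluripotent groups. It stood at 199.9 and 201 FPKM in ESCs, 243 and 182 in EPSCs, and 303 and 187 in hybrid cells. The ESC libraries lay inside the range of both other groups. Hybrid cells against EPSCs gave 0.18 ± 0.22 (adjusted p = 0.534), and 0.53 (adjusted p = 0.0333) without hybrid replicate 2. Hybrid cells against ESCs gave 0.25 ± 0.22 (adjusted p = 0.346), and this became 0.59 (adjusted p = 0.0135) without hybrid replicate 2 and -0.10 (adjusted p = 0.604) without hybrid replicate 1.

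Promoter sequences from RefSeq (GRCm38.p6, 250 bases before to 50 after the start) were held for 4 of the 10 genes. Those of Nr0b1, Utf1, and the outer start of Nr5a2 are shown because these genes differed between ESCs and EPSCs in opposite directions. All are written on the strand of the gene. Capitals mark exact matches, on either strand, to 8 motifs. The nuclear receptor half-site was AGGTCA. It lies within the extended half-site CAAGGTCA of orphan receptors such as NR5A2. The TATA box was searched as TATAAA. Sites of SP factors, or GC boxes, were taken as GGGCGG. The motif shared by SOX factors was ACAAAG. The E-box, which reads alike on both strands, was CACGTG. The octamer bound by OCT4 was ATGCAAAT. The T-box half-site was AGGTGTGA. The extended half-site, the E-box, the octamer, and the T-box half-site do not occur in these windows.
Nr0b1, chrX:86191525-86191824, plus strand: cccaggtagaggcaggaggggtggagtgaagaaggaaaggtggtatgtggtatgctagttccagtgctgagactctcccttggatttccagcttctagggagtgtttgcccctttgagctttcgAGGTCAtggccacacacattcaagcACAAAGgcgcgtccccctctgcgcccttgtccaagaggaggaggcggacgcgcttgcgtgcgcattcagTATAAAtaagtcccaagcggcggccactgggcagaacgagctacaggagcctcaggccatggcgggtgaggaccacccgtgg
Utf1, chr7:139943606-139943905, plus strand: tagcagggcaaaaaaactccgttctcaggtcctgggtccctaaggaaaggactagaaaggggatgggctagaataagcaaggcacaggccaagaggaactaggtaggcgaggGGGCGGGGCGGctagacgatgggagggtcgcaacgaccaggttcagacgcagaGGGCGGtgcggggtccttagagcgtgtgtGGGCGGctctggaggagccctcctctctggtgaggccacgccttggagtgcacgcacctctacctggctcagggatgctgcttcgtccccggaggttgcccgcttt
Nr5a2, chr1:136960399-136960698, minus strand: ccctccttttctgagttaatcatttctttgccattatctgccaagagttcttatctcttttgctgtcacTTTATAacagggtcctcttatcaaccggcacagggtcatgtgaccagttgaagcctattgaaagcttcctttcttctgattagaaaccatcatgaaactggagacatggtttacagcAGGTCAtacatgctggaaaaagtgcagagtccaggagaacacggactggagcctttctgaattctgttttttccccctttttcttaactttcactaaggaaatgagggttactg

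The Nr0b1 window holds the receptor half-site with its first base at position -126 from the start, the SOX motif at -101, and the TATA box at -32. Of 32851 promoters of the same length, 16.3% hold the receptor half-site, 18.7% the SOX motif, and 13.6% the TATA box. The Utf1 window holds the GC box at -138, -133, -85, and -56, the leading pair sharing 1 base, and 35.7% of promoters hold at least 1 such match. The Nr5a2 window holds the receptor half-site at -64 and the TATA box on the opposite strand at -181. The octamer is in 1.74% of promoters, the extended half-site in 1.56%, the E-box in 7.15%, and the T-box half-site in 1.28%. CpG dinucleotides numbered 17 for Utf1, 14 for Nr0b1, and 2 for this Nr5a2 start, beside a median of 7 over all promoters. A match is a string of letters and says nothing here of binding.

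Levels in hybrid cells were also set against both parents. The mean of the EPSC and NSC levels was 28.6 FPKM for Dppa2, and the hybrid libraries stood at 3.22 and 2.82 times this value. Because NSCs were near 0, a ratio of 2 corresponds to the EPSC level itself. The mean ratio was above 2 for 7 genes, from 2.2 for Dppa5a to 3.02 for Dppa2, and below 2 for 3 genes (Utf1 at 1.97, Dppa3 at 1.88, and Nr5a2 at 1.65). All 20 single values, 10 genes in 2 hybrid libraries, were at or above the 1.5 of Nr5a2 in hybrid replicate 2, midway between the mean of both parents and the EPSC level. When log2(FPKM + 1) values were rescaled so that NSCs averaged 0 and EPSCs averaged 1, hybrid means lay between 0.948 (Nr5a2) and 1.10 (Tbx3 and Dppa2). On this scale the mean of both parental FPKM values itself lies between 0.810 (Nr5a2) and 0.912 (Dppa5a), so it separates the levels less than the linear ratio does.

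**Figure D4:**
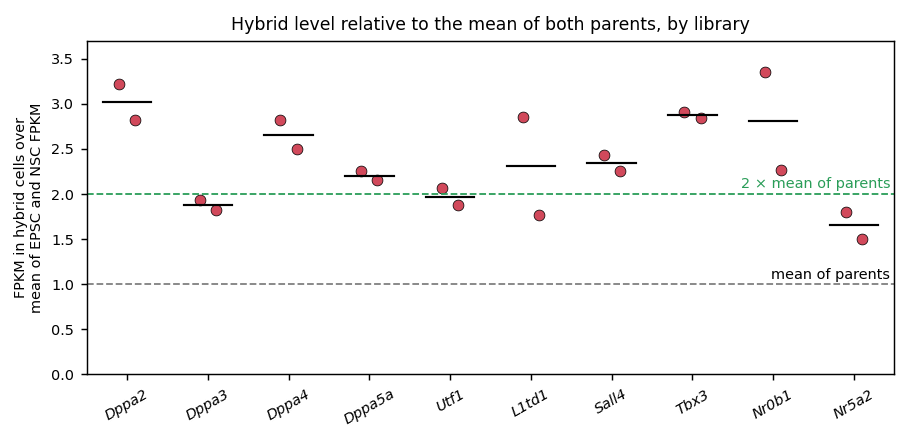
FPKM in the 2 hybrid libraries (points) and their mean (line) divided by the mean of the EPSC and NSC levels, for each gene, on a linear axis from 0. Dashed lines mark 1, the mean of both parents, and 2, which equals the EPSC level where NSCs are at 0, and Dppa2, Dppa4, Sall4, Tbx3, Dppa5a, and Nr0b1 lie above 2 in both libraries.

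Core and naive pluripotency factors, the network around the set, were described the same way. Of 20 genes tested, 6 were higher and 6 lower in EPSCs than in ESCs, beside 33.7% and 27.3% of all genes, with a median of 0.12. In hybrid cells against EPSCs, 2 were higher and 6 lower, beside 22.5% and 21.9%, with a median of -0.05. Zfp42 (Rex1), a naive marker, stood at 346 and 335 FPKM in ESCs, 87.4 and 88.4 in EPSCs, and 228 and 201 in hybrid cells, the same order of ESCs, hybrid cells, and EPSCs as Sall4. Klf4, a naive factor, was higher in EPSCs than in ESCs by 1.31 (adjusted p = 0.000162) and lower in hybrid cells than in EPSCs by -0.60 (adjusted p = 0.00981). Of 13 formative and primed genes tested, 3 were higher and 4 lower in EPSCs than in ESCs, beside the same 33.7% and 27.3%, with Otx2 at -2.07 and Pou3f1 at -1.83 among the lower genes and T and Etv4 (0.81, adjusted p = 0.000371) among the higher ones. In hybrid cells against EPSCs, 4 were higher and 0 lower, beside 22.5% and 21.9%.

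**Figure D5:**
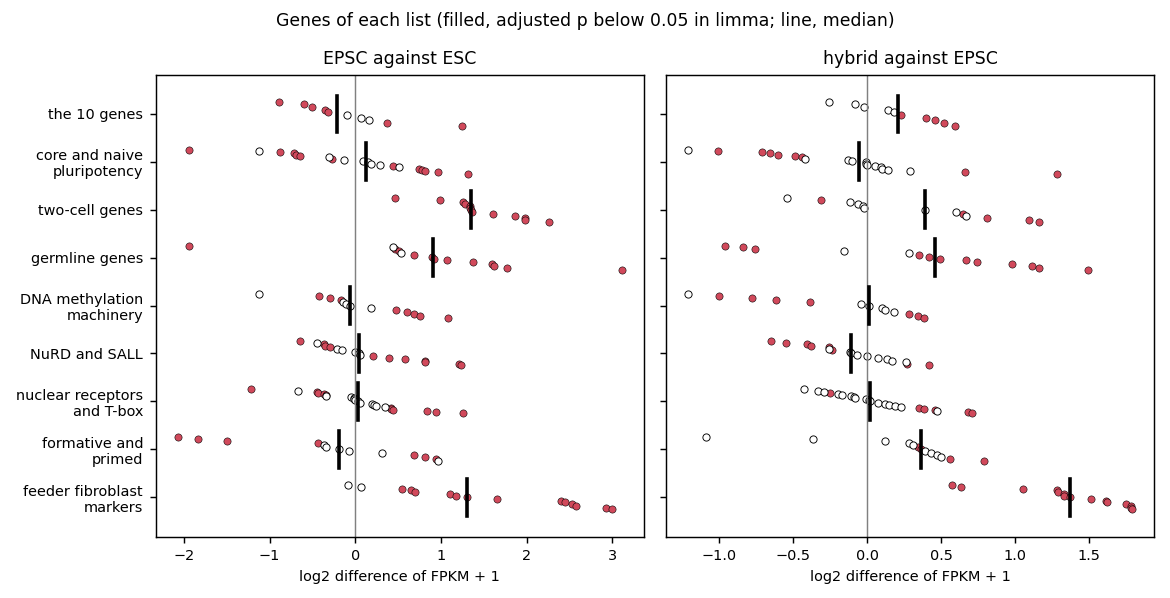
Difference of log2(FPKM + 1) for each tested gene (points) of the 10-gene set and of 8 other lists, in EPSCs against ESCs (left) and hybrid cells against EPSCs (right). Filled points passed limma at an adjusted p below 0.05 and black lines are medians. On the left these are 1.35 for 2-cell genes, 0.91 for germline genes, and 1.30 for feeder markers, and on the right 1.37 for feeder markers. Some genes of these lists, and all 2-cell genes except Eif1a, entered the test only through EPSCs or hybrid cells. The filter therefore partly fixed these medians on the left. On the right it fixed the direction of Tex101 and Tbx15, which entered only through hybrid cells.

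For each gene of the set, the genes with the most similar pattern over the 8 libraries were found by the root mean square difference of centred log2 values. Dppa4 and Nr0b1 were near each other (0.142), with each as the nearest gene of the other. Nanog was nearest to L1td1 (0.264), Pou5f1 to Dppa5a (0.702), Gdf3 to Sall4 (0.183), Hspb1 to Utf1 (0.145), Stx3 to Nr5a2 (0.078), Trim6 to Dppa3 (0.197), and Rpp25 to Dppa2 (0.090). Morc1, a germline ATPase, was nearest to Tbx3 (0.104), at 27.3 and 27.6 FPKM in ESCs, 33.2 and 31.3 in EPSCs, and 45.4 and 39.6 in hybrid cells. All of the nearest genes named here had an NSC mean of 0.574 FPKM or less. The measure therefore depends largely on the gap to NSCs, and so on the level in pluripotent cells. Gdf3, for example, had means of 68.1 FPKM in EPSCs and 62.4 in hybrid cells, the reverse of the order in Sall4.

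Neighbours on the chromosome did not all follow the genes of the set. Morc1, whose start lies 112 kb beyond Dppa2 on chromosome 16, was higher in hybrid cells than in EPSCs by 0.39 (adjusted p = 0.00723) as Dppa2 was, but it was also higher in EPSCs than in ESCs (0.22, adjusted p = 0.041), where Dppa2 was lower. Gdf3, 16.3 kb before Dppa3, was lower in EPSCs than in ESCs (-0.71, adjusted p = 0.000179), the opposite of Dppa3. Nanog, 77.2 kb beyond Dppa3, did not differ beyond its spread (0.15, adjusted p = 0.0824). Zfp64, 126 kb from Sall4 on chromosome 2, was lower in EPSCs than in ESCs (-0.69, adjusted p = 0.000292) like Sall4, and Atp9a, 5.96 kb on its other side, was higher (0.70, adjusted p = 0.000525). Tbx5, 112 kb beyond Tbx3 on chromosome 5, did not exceed 0.0493 FPKM, and Tbx3os2, 0.363 kb beyond it, had a mean of 0.61 FPKM in ESCs or less elsewhere.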

How the data were processed

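Poly-A RNA was sequenced as paired 100-base reads from 2 libraries each of ESCs, EPSCs, hybrid cells, and NSCs. Per the methods and the submitters' processing notes, the authors trimmed reads with skewer 0.2.2, aligned them to mm10 with STAR 2.7.9a, and ran Cuffnorm 2.2.1. FPKM (fragments per kilobase of transcript, scaled for library size) of every gene in every library is the unit the authors deposited. The gene annotation, strand setting, and library normalization of Cuffnorm are not given in the sources used here. Columns were assigned to groups by name.

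Groups were compared with limma 3.58.1 in R 4.3.3 (lmFit and eBayes with trend, two-sided) on log2(FPKM + 1), with all 8 libraries in 1 fit, so fold changes of low genes are understated. The 4 groups share 1 estimate of spread per gene. For the 8 genes of the set at 0 in both NSC libraries, that pair adds no spread, which lowers the SE of every comparison. The fit covered the 13239 genes with a mean of at least 1 FPKM in 1 group, and Benjamini-Hochberg adjusted p-values below 0.05 were called over all of them. The model was first tested on simulated data, with an outcome that is not reported here. The fold rule of the methods needs a mean over 3 FPKM and a ratio over 3. With 2 libraries a group, exact permutation p-values cannot fall below 0.333, so none were computed. FPKM summed to 415239.7 to 415412.4 in NSCs and 600674.0 to 653796.4 elsewhere. Counts were not used, and approximate depths were read from the spacing of low FPKM values over 2247 genes with 1 transcript. They came to 22.0 to 32.6 when counted in units of 1000000 fragments, and 74.6% to 84.2% of values fell within 0.1 of whole fragments at an assumed fragment length of 200 bases.

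The 10 genes and all gene lists were chosen with earlier results of these data known. The text names all 10 genes. From each list it draws on at most 4 genes with the largest change that passed, and it also names the nearest genes by pattern or position and cell type markers. Further list genes (Uhrf1, Uhrf2, Dnmt1, Tet3, Zfp57, Trim28, Sall1, Mta3, Mbd3, Gatad2a, Esrrb, Nr2f6, T, Etv4, Tle6, Eif1a, Pax6, Eomes, Gata2, Gata3, Ascl2, and Cdx2) were named after their values were seen. Positions and promoters are from RefSeq (GRCm38.p6), and transcripts from GENCODE. Alternatives covered pseudocount, filter, scaling, fit, replicate block, and each library left out.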

Additional observations from a re-analysis of the deposited data

How the results depend on the processing

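Each of the 60 differences (10 genes in 6 comparisons) was recomputed under 17 other settings, 1020 values in all, of which 968 kept direction and call, 30 lost the call, 9 gained it in the same direction, and 13 changed sign, of which 1 also gained a call (Nr0b1 in hybrid cells against ESCs without hybrid replicate 2). All 10 genes stayed higher than NSCs under every setting, a direction that the filter on low values largely fixed in advance. The calls of Dppa2, Dppa4, and Tbx3 in hybrid cells against EPSCs, of Dppa3, Dppa2, Dppa4, Sall4, and Utf1 in EPSCs against ESCs, and of Dppa3, Tbx3, Sall4, and Utf1 in hybrid cells against ESCs held under every setting. The number of genes called in hybrid cells against EPSCs, 5, was 3 when only both groups were fitted and 3 to 6 with 1 library left out. With a mean over 2 and a ratio over 2, the fold rule took only Dppa3, in EPSCs against ESCs (2.43-fold) and in hybrid cells against ESCs (2.28-fold). No share of all genes is given at this threshold, so nothing is read from this count. Signs changed only in values that had not been called. In EPSCs against ESCs, L1td1 gave -0.12 after quantile normalization, and in hybrid cells against ESCs, Dppa4 gave -0.07 after quantile normalization and Dppa5a -0.03 after scaling to a common sum. With 1 library left out, hybrid cells against EPSCs ranged from -0.27 to 0.12 for Dppa3, -0.17 to 0.53 for L1td1, and -0.09 to 0.04 for Utf1. EPSCs against ESCs ranged from -0.14 to 0.27 for L1td1. Hybrid cells against ESCs ranged from -0.02 to 0.10 for Dppa5a, -0.01 to 0.17 for Dppa4, -0.10 to 0.59 for L1td1, -0.32 to 0.24 for Nr0b1, and -0.02 to 0.24 for Nr5a2. The cause was not tested. With the replicate block the members called were 5, 10, 7, 5, 10, and 10 in the order hybrid cells against EPSCs, hybrid cells against NSCs, EPSCs against ESCs, hybrid cells against ESCs, ESCs against NSCs, and EPSCs against NSCs, as without it, and it changed no call of a member. Of all 13239 genes tested, 6060, 11511, 8250, 8757, 11265, and 11441 were called with the block in the same order. Without it, 5881, 11449, 8079, 8667, 11212, and 11409 were called. Libraries share only a number, and deviations of equal numbers correlated between -0.112 and 0.28. With crossed numbers for ESCs against NSCs, 11295 genes were called, beside 11265 with the replicate block and 11212 without. Scaling to a common sum moved the median of all genes by -0.495 to -0.562 against NSCs. Low levels in NSCs are limited by depth.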

Other observations

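Markers of extraembryonic lineages were also compared between EPSCs and hybrid cells. Of 10 trophectoderm markers tested, 5 were lower in hybrid cells than in EPSCs and 0 were higher, beside 21.9% and 22.5% of all genes, with a median log2 difference of -0.43 beside 0.00. Krt8, a keratin of the trophectoderm, stood at 11.3 and 10.4 FPKM in ESCs, 21.9 and 18.9 in EPSCs, and 5.55 and 5.44 in hybrid cells, and was lower in hybrid cells than in EPSCs by -1.72 (adjusted p = 8.2e-05). Krt7 (-1.36), Krt18 (-1.04), and Esx1 (-0.71) were also lower, and Esx1 entered the test only through EPSCs. Eomes (-0.29, adjusted p = 0.187), Gata2 (-0.27, adjusted p = 0.262), Gata3 (0.04, adjusted p = 0.912), and Ascl2 (-0.11, adjusted p = 0.532) did not pass. Cdx2 was too low to be tested, at 0.536 and 0.426 FPKM in EPSCs and 1.07 and 0.249 in hybrid cells. Of 8 primitive endoderm markers tested, 4 were lower and 2 higher in hybrid cells than in EPSCs, beside the same shares. Srgn, a secreted proteoglycan core protein, stood at 6.03 and 7.64 FPKM in ESCs, 3.56 and 4.36 in EPSCs, and 0.345 and 0.180 in hybrid cells. The 2 higher endoderm markers were Pdgfra (0.57, adjusted p = 0.00167) and Col4a1 (0.39, adjusted p = 0.0444), which fibroblasts can also express.

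Of 14 neural stem cell markers tested, 4 were higher and 2 lower in EPSCs than in ESCs, beside 33.7% and 27.3% of all genes. Olig1 and Olig2, transcription factors of the oligodendrocyte lineage, had the widest rises. Olig1 stood at 0.341 and 0.203 FPKM in ESCs, 8.60 and 9.82 in EPSCs, 5.29 and 5.99 in hybrid cells, and 665 and 663 in NSCs. Olig2 stood at 0.0274 and 0.0746 FPKM in ESCs, 5.89 and 6.09 in EPSCs, and 4.06 and 3.56 in hybrid cells. Pax6, a neural transcription factor, was lower in EPSCs than in ESCs (-1.34, adjusted p = 4.4e-05), from 3.67 and 4.02 FPKM to 1.08 and 0.760. Fabp7 and Ptprz1, which reached 2798 and 272 FPKM in NSCs, did not exceed 0.238 and 0.498 FPKM in any pluripotent library.

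Dnmt3l, a cofactor of de novo DNA methylation, had the widest gaps between libraries of a group among the genes listed around DPPA3. It stood at 179 and 176 FPKM in ESCs, 111 and 58.8 in EPSCs, and 69.9 and 16.8 in hybrid cells, and, among the pluripotent groups, passed only in hybrid cells against ESCs (-2.33, adjusted p = 0.00906), not in EPSCs against ESCs (-1.12, adjusted p = 0.13) or hybrid cells against EPSCs (-1.21, adjusted p = 0.13). Of 10 primordial germ cell markers tested, 3 were higher and 5 lower in EPSCs than in ESCs, beside 33.7% and 27.3% of all genes, and 5 were higher and 2 lower in hybrid cells than in EPSCs, beside 22.5% and 21.9%, with medians of -0.17 and 0.47.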
